A study of Homo sapiens with 16 samples.

Results

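The mitosis and spindle genes described here are 55 protein-coding human genes whose products act between entry into mitosis and the separation of the daughter cells. They were chosen by symbol from a list of mitotic kinases and cyclins, checkpoint proteins, kinetochore components, spindle motors, cytokinesis factors and condensins. The rule uses no measured value, but the list was drawn up with earlier results of these data known. The shares below therefore describe the members and are not a test on a list chosen blind. All 55 were found among the 60623 genes listed for each library, of which 20747 had a read in at least 1 library. By role they comprised 10 genes of mitotic entry, 9 of the spindle checkpoint and anaphase, 4 of the chromosomal passenger complex, 8 of the centromere and kinetochore, 10 of spindle assembly, 8 of cytokinesis and 6 of chromosome structure.

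The study asked how gut and liver cells influence each other under a load of fat, using 2 human cancer lines in a microfluidic chip: Caco-2, a colorectal adenocarcinoma line used as a model of the intestinal epithelium, and HepG2, a hepatocellular carcinoma line used as a model of the hepatocyte. Each line was grown in mono-culture or in co-culture with the other line, with or without free fatty acids (FFA, palmitic and oleic acid at 1 mM in total). The 8 groups were therefore Caco-2 mono-culture control, mono-culture FFA, co-culture control and co-culture FFA, and the same 4 of HepG2, with 2 Oxford Nanopore PCR-cDNA libraries in each. The labels place sampling at day 1 of treatment. The study describes this and a longer treatment, and does not say which one the Nanopore libraries belong to. Day 1 therefore rests on the labels alone. The sample titles also begin with the letters LTC, which they do not spell out. Whether the control chips received the fatty acid vehicle is not given in the sources used here. Both lines are transformed, so neither stands for resting gut or liver tissue. The study starved cells of serum before treatment and kept serum out of the treatment medium to limit proliferation. It reports reduced proliferation of both lines in mono-culture. The study describes its sequencing as repeated in independent experiments, but the labels do not tie each library to one, so the p-values measure the spread between these libraries, which may in part be technical.

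Entry into mitosis is driven by CDK1, a kinase that needs cyclin B. The spindle then pulls on chromosomes through kinetochores, and the checkpoint holds the anaphase-promoting complex until every chromosome is attached. That complex marks securin and cyclin B for destruction, and the cell divides. Transcripts of these proteins accumulate in G2 and mitosis, and they are widely used as a readout of how much of a culture is dividing. In bulk RNA, fewer cells in division and less of the transcript per dividing cell cannot be told apart.

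Many promoters of late cell cycle genes carry a CHR element, which the MuvB complexes bind, and CCAAT boxes, which the factor NF-Y binds. The element is written here as TTTGAA, or with an adenine in place of the guanine as TTTAAA. Both forms, called CHR letters below, and CCAAT were searched on both strands of the RefSeq promoter windows of assembly GRCh38.p14, which run from 250 bases before to 50 bases after each gene's start. The 48 members that matched a window are described, and the other 7 (AURKA, BIRC5, BUB3, RACGAP1, TPX2, TTK and UBE2C) are only named. The 200 bases before the start are shown for 4 members, CDK1 and CCNB1 because together they form the kinase that starts mitosis, and CENPF and HMMR because they were the 2 members that passed the test for co-culture in Caco-2. Capitals mark the CHR letters and CCAAT, on either strand. All 4 windows lie on the plus strand. In GENCODE 44 the genes span chr10:60778331-60794852 (CDK1), chr5:69167135-69178245 (CCNB1), chr1:214603185-214664574 (CENPF) and chr5:163460203-163491941 (HMMR), so the RefSeq starts used for CCNB1, CENPF and HMMR lie inside the GENCODE genes.
CDK1 promoter, chr10:60778131-60778330: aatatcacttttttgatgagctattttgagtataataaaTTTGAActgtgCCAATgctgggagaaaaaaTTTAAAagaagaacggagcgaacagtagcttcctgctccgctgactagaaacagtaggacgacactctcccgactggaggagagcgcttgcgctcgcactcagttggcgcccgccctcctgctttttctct
CCNB1 promoter, chr5:69166950-69167149: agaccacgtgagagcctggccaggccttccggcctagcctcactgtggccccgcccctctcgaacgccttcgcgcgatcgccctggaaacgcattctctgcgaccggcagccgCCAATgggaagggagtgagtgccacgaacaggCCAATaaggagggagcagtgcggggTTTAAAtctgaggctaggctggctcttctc
CENPF promoter, chr1:214602995-214603194: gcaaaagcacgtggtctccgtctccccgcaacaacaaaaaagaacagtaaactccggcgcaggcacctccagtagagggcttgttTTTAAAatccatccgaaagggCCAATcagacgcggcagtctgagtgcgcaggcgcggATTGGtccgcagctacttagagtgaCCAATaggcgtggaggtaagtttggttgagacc
HMMR promoter, chr5:163460432-163460631: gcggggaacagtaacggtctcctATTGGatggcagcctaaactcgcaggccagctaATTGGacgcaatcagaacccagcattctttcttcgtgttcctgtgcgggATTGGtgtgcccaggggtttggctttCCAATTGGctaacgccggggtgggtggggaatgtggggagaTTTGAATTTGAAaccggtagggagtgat

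CHR letters stood in 39 of the 48 member windows (81.2%), against 24.3% of 27305 promoters. Within 60 bases of the start they stood in 35 (72.9%), against 8.63% of all promoters. CCAAT was found in 77.1% of the member windows and 35.7% of all, and both kinds of letters in 62.5% and 9.49%. Counted from the start, the CHR letters of the promoters above began at -161 and -131 in CDK1, at -30 in CCNB1, at -115 in CENPF, which had a further match at 41 after the start, and at -28 and -22 in HMMR. CDC25C, the phosphatase that activates CDK1, and CKAP2, a spindle-associated protein, had none of these letters in the window. Among the windows of other mitosis genes 41.4% (36 of 87) had CHR letters, and among those of DNA replication 12.1% (4 of 33). The form TTTAAA is its own reverse complement, and matches can share bases, as a CCAAT with its reverse complement in the HMMR promoter. A match is a description of letters and not of binding, which was not measured here.

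Levels are given as CPM, that is, as read numbers after each library was brought to the same total. Libraries held 49634 to 1657421 reads, so 1 read was worth 0.603 to 20.1 CPM, and a gene with 0 reads could lie anywhere up to a floor of 3 reads, or 1.81 to 60.4 CPM. Floors cover counting error only. The 8 Caco-2 libraries held 353871 to 974654 reads, while the 2 HepG2 co-culture FFA libraries were the shallowest, with 147096 and 49634. The 55 genes had 13 to 3292 reads each over the 16 libraries, with a median of 220, and 16 of them had under 100. Of 15 liver markers, 12 were higher in every HepG2 than in every Caco-2 library, the exceptions being VTN, TTR and HRG, and 5 of 15 gut markers were higher in every Caco-2 library. The intestinal genes CDX1, OLFM4 and ISX had no read in Caco-2.

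The 55 transcripts made up a larger part of the Caco-2 than of the HepG2 libraries. Their summed level was 4628 and 4829 CPM in the Caco-2 mono-culture control, 5057 and 5170 in mono-culture FFA, 5149 and 4991 in the co-culture control and 4316 and 4619 in co-culture FFA. In HepG2 it was 866 and 906 CPM in the mono-culture control, 829 and 1102 in mono-culture FFA, 1142 and 1166 in the co-culture control and 1190 and 1451 in co-culture FFA. The lines did not overlap, and the means were 4845 ± 303 CPM in Caco-2 and 1081 ± 207 in HepG2 (SD, n = 8 each), a ratio of 4.48. The ratio was 6.10 for the checkpoint and anaphase genes, 5.30 for cytokinesis, 5.10 for mitotic entry, 3.71 for spindle assembly, 2.90 for the kinetochore, 2.80 for chromosome structure and 2.21 for the passenger complex. Over genes of DNA replication it was 2.10, over other mitosis genes 1.67 and over inhibitors of the cell cycle 1.43.

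**Figure D1:**
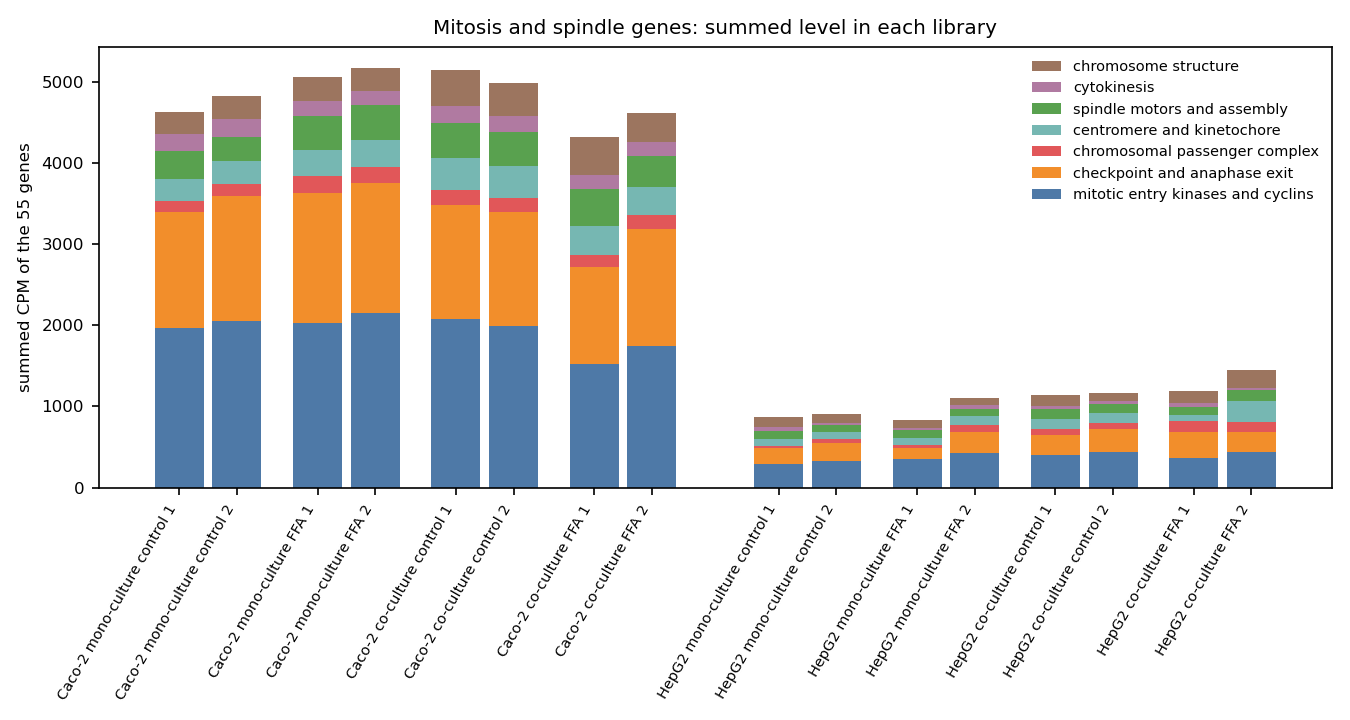
Stacked bars of the summed level (CPM) of the 55 mitosis and spindle genes in each of the 16 libraries, colored by role, with Caco-2 on the left and HepG2 on the right. The 8 Caco-2 bars end between 4316 and 5170 CPM and the 8 HepG2 bars between 829 and 1451 CPM.

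The lines were compared on log2(CPM + 1), averaged over the 4 conditions, with limma and Benjamini-Hochberg adjustment over 17544 genes. On this scale a fold change understates the change of low genes. All 55 differences lay below 0, that is, lower in HepG2, and 49 of 55 (89.1%) passed at an adjusted p under 0.05, against 17.9% of all genes that were called lower. The median difference was -1.98 over the members and -0.16 over all genes. In 26 members (47.3%) every HepG2 library lay below every Caco-2 library, against 5.97% of all genes. Several of the 26 had no read in the shallowest HepG2 library and Caco-2 values under its floor of 60.4 CPM. Among them were ASPM (from 5.88 CPM in Caco-2) and KIF20B (from 28.3 CPM). For these the lack of overlap holds only for the values as given. Leaving out the co-culture FFA groups of both lines, 51 of 55 were called. Only the HepG2 group of these was thinly sequenced, and the share of all genes called in this fit is not given here.

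Within mono-culture controls alone, 2 libraries against 2, all 55 again lay below 0. In this comparison 24 of 55 (43.6%) were called lower, against 5.77% of all genes. The libraries did not overlap in 51 members (92.7%), against 23.2% of all genes, and the median difference was -1.96 against 0.00.

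Among the genes of mitotic entry, 8 of 10 were lower in HepG2, with a median difference of -2.0. CDK1, the kinase that starts mitosis, had 586 and 593 CPM in the Caco-2 mono-culture control, 579 and 643 in mono-culture FFA, 606 and 721 in the co-culture control and 367 and 455 in co-culture FFA. In HepG2 it had 13.9 and 8.80 CPM, 25.9 and 29.1, 23.5 and 25.4, and 27.2 and 60.4 in the same order of groups. The lowest Caco-2 library stood above every HepG2 library. On the log2(CPM + 1) scale CDK1 had the largest difference of the 55, at -4.51 (SE 0.16, adjusted p = 6.33e-11 in limma), and -5.61 within mono-culture controls (adjusted p = 5.45e-08). Its means, 569 ± 110 and 26.8 ± 15.3 CPM (SD, n = 8), stood at a ratio of 21.2. By that ratio KIF14 (37.2), ASPM (33.3) and ANLN (28.4) came before it, with 1, 4 and 6 reads over the HepG2 libraries.

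The partner of CDK1 differed less. Cyclin B1 (CCNB1) ranged from 150 to 224 CPM in Caco-2 (median 195) and from 34.8 to 101 CPM in HepG2 (median 39.9), a difference of -2.01 (SE 0.13, adjusted p = 3.32e-08). Cyclin B2 (CCNB2) differed by -1.93 and cyclin A2 (CCNA2), which acts earlier in G2, by -2.59. The CDK subunits CKS1B and CKS2, small proteins that dock CDK1 on its substrates, had 407 to 625 (median 545) and 215 to 403 CPM (median 323) in Caco-2, and 116 to 164 (median 129) and 71.9 to 158 CPM (median 102) in HepG2. They differed by -1.98 (SE 0.10, adjusted p = 2.99e-09) and -1.65 (SE 0.13, adjusted p = 2.32e-07). AURKA, the Aurora kinase of the spindle poles, had 134 to 182 CPM in Caco-2 (median 159) and a median of 24.5 CPM in HepG2, where 1 library had no read and none reached the Caco-2 range, a difference of -3.34 (adjusted p = 1.89e-06). The members of this role that did not pass were PLK1, the Polo-like kinase, with 11.7 to 29.7 CPM in Caco-2 (median 22.6) and 0 to 34.0 CPM in HepG2 (median 8.31; -1.33, adjusted p = 0.0896), and TTK, the checkpoint kinase MPS1, which had 21 reads in all (-0.54, adjusted p = 0.537).

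All 9 checkpoint and anaphase genes were lower in HepG2, with a median difference of -2.87. UBE2C, the ubiquitin-conjugating enzyme of the anaphase-promoting complex, ranged from 468 to 562 CPM in Caco-2 (median 504) and from 18.8 to 80.6 CPM in HepG2 (median 34.6). The groups were far apart, and the difference was -3.78 (SE 0.19, adjusted p = 2.49e-09). PTTG1, which encodes securin, the inhibitor of the cohesin-cutting protease, had 404 to 608 CPM in Caco-2 (median 495) against 20.2 to 80.0 CPM in HepG2 (-3.31, SE 0.22, adjusted p = 3.47e-08). CDC20, the activator of the complex at anaphase, had 42.1 to 80.4 CPM in Caco-2 (median 61.0) and 6.97 to 47.6 CPM in HepG2 (median 11.3), a difference of -2.09. CDCA3, which triggers entry into mitosis through destruction of the kinase WEE1, had 62.8 to 117 CPM (median 107) and 2.36 to 40.3 CPM (median 12.4), without overlap (-2.87, adjusted p = 2.51e-06). The differences of BUB1, BUB1B, BUB3 and MAD2L1, which build the checkpoint signal, were -3.05, -1.74, -1.07 and -1.22.

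In the passenger complex, which corrects faulty attachments, 3 of 4 were lower. The kinase AURKB had 78.0 to 116 CPM in Caco-2 (median 91.6) and 14.1 to 68.0 CPM in HepG2 (median 27.3; -1.63, adjusted p = 1.14e-05), and the groups did not overlap. Survivin (BIRC5) had 38.3 to 75.5 CPM in Caco-2 and 6.97 to 61.2 CPM in HepG2 (median 41.3), which overlapped (-0.81, adjusted p = 0.0401). The scaffold INCENP differed by -2.18 with 47 reads, and CDCA8, or borealin, did not pass (-1.42, adjusted p = 0.0671).

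At the centromere and kinetochore 7 of 8 were lower, with a median difference of -1.57. CENPF, a large protein of the outer kinetochore, ranged from 43.4 to 111 CPM in Caco-2 (median 69.5) and from 12.7 to 40.3 CPM in HepG2 (median 28.1; -1.41, SE 0.16, adjusted p = 1.41e-05). CENPW, which helps to build the inner kinetochore, had 82.1 to 150 CPM in Caco-2 (median 124) and 18.2 to 121 CPM in HepG2 (median 30.4), where the 121 CPM came from the shallowest library (-1.73, adjusted p = 1.38e-04). The NDC80 complex, which holds the microtubule end, was measured through its 4 subunits: NDC80 differed by -2.42, NUF2 by -1.39 and SPC25 by -1.93, while SPC24, with 25 reads, did not pass (-0.85, adjusted p = 0.262).

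Of the spindle genes 9 of 10 were lower (median -2.11), as were all 8 of cytokinesis (median -2.57). TPX2, which activates Aurora A on spindle microtubules, had 71.1 to 103 CPM in Caco-2 (median 80.2) and 0 to 14.1 CPM in HepG2 (median 11.3; -3.12, adjusted p = 4.41e-05). NUSAP1, which bundles spindle microtubules, had 67.0 to 121 CPM in Caco-2 (median 89.1) and 14.5 to 60.4 CPM in HepG2 (median 24.3), a difference of -1.78 (adjusted p = 2.52e-05). Neither gene overlapped between the lines. ANLN, the anillin scaffold of the contractile ring, had 4.10 to 64.6 CPM in Caco-2 (median 27.0, 159 reads) and 0 to 7.06 CPM in HepG2 (median 0.305, 6 reads), a difference of -4.10 (adjusted p = 9.45e-06). In 4 HepG2 libraries ANLN had no read. The midzone protein PRC1 had 32.8 to 63.4 CPM in Caco-2 (median 42.8) and 0 to 23.2 CPM in HepG2 (median 15.3), a difference of -2.05 (adjusted p = 0.00742). The kinesin KIF20B had 28.3 to 53.5 CPM (median 32.0) and 0 to 13.9 CPM (median 6.81), a difference of -2.52 (adjusted p = 9.46e-04). Both were without overlap in the values as given, but their Caco-2 ranges reach below 60.4 CPM, the floor of the shallowest HepG2 library. The RhoA activator ECT2 differed by -2.78. The chromokinesin KIF4A did not pass (-1.35, adjusted p = 0.0693).

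In chromosome structure 5 of 6 were lower (median -1.48). TOP2A, the topoisomerase that untangles sister chromatids, had 123 to 224 CPM in Caco-2 (median 168) and 32.7 to 80.6 CPM in HepG2 (median 55.7; -1.59, SE 0.14, adjusted p = 7.90e-07). The condensin subunit SMC4 had 49.8 to 104 CPM in Caco-2 (median 75.8) and 10.9 to 60.4 CPM in HepG2 (median 19.7), a difference of -1.75 (adjusted p = 2.53e-06). Its partner SMC2 differed by -1.34, and NCAPG did not pass (-0.44, adjusted p = 0.438). MKI67, whose protein Ki-67 is the usual stain for dividing cells, had only 49 reads in all 16 libraries, at 2.46 to 16.4 CPM in Caco-2 (median 8.68) and 0 to 3.64 CPM in HepG2 (median 0.490), and differed by -2.40 (adjusted p = 6.71e-04).

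**Figure D2:**
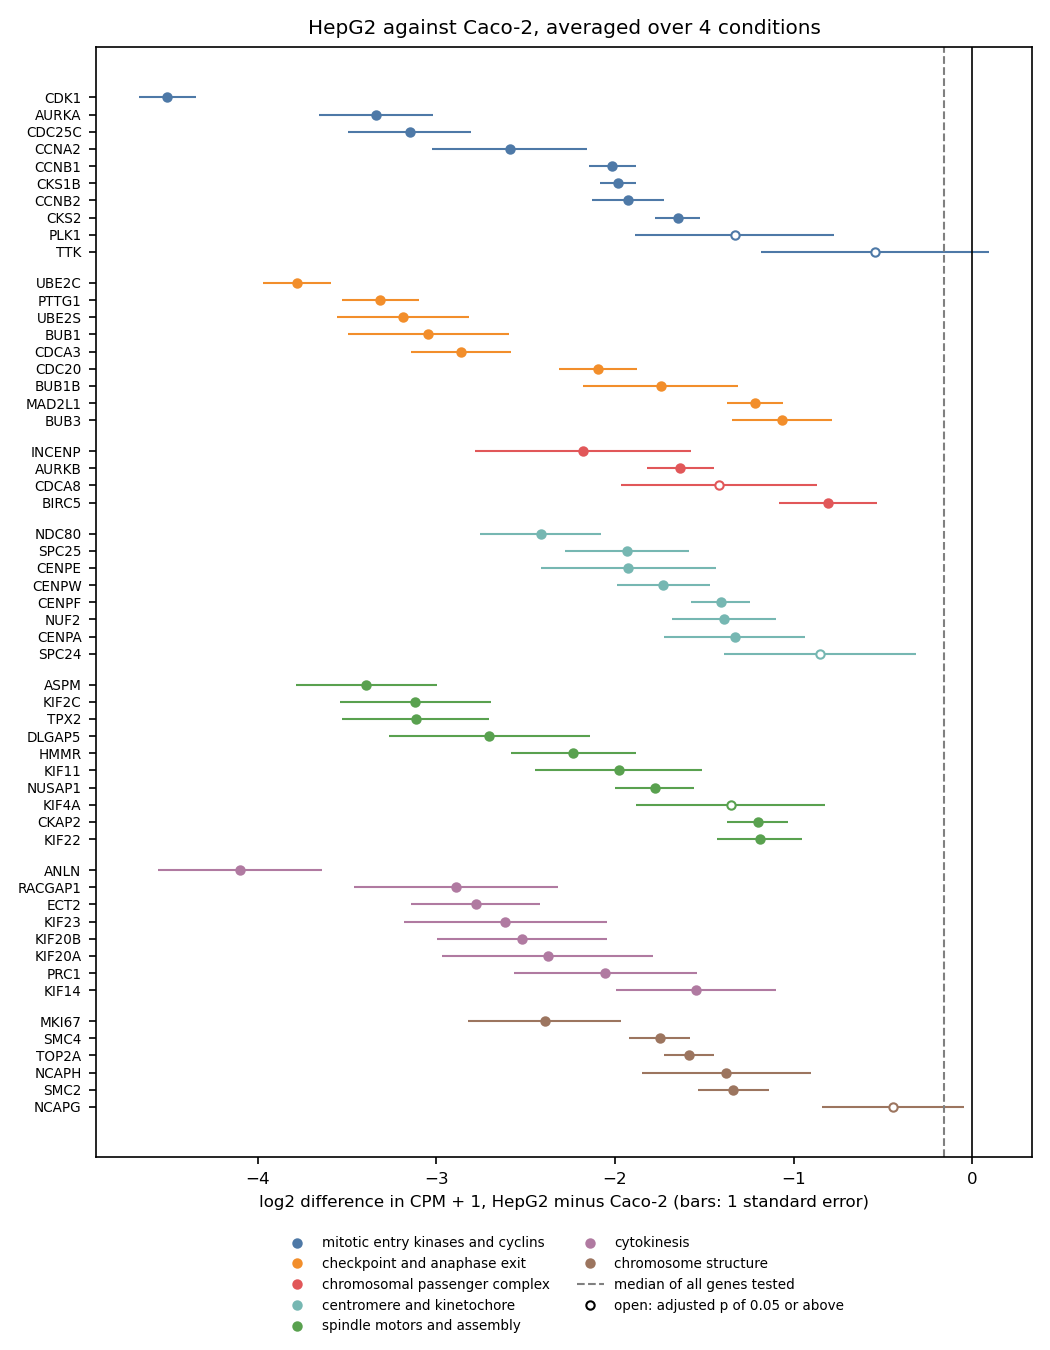
Log2 difference, HepG2 minus Caco-2, of log2(CPM + 1) for each of the 55 genes, averaged over the 4 conditions, with bars of 1 SE, grouped by role. Filled points have an adjusted p under 0.05, the dashed line is the median of all genes (-0.16), and every point lies below 0, with CDK1 at -4.51 and NCAPG at -0.44.

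The length of the transcript, which can affect how many nanopore reads a gene gets, did not separate the members in this comparison. The median difference was -1.96 over the 28 members with a canonical transcript of at most 2966 bases and -1.98 over the 27 longer ones, against -0.13 and -0.20 over all genes split there. The 39 members with CHR letters in the promoter window had a median difference of -1.98, and the 9 without them -1.73.

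Caco-2 co-culture was next compared with mono-culture, averaged over control and FFA (4 libraries against 4, 15454 genes). CENPF and HMMR were higher in co-culture, which is 2 of 55 (3.64%) against 0.317% of all genes called higher. No member was called lower by limma, against 0.136% of all genes. At an unadjusted p under 0.05, 9 members were higher (16.4%, against 8.41% of all genes) and 6 lower (10.9%, against 3.37%). Of 55 members 33 lay above 0, against 59.6% of all genes, and the median was 0.06 against 0.14 over all genes, so the members lay on both sides of 0. The member median was -0.04 with quantile scaling and -0.03 with median-ratio scaling. Of all genes 49 were called higher and 21 lower, against 56 and 62 with quantile scaling and 35 and 33 with median-ratio scaling.

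CENPF had 60.2 and 43.5 CPM in the mono-culture control and 44.5 and 43.4 in mono-culture FFA. In co-culture it had 111 and 87.6 CPM in the control and 98.5 and 78.8 in FFA. Every co-culture library lay above every mono-culture library, and the means of 94.0 ± 13.9 and 47.9 ± 8.22 CPM (SD, n = 4 each) stood at a ratio of 1.96. The difference was 0.96 on the log2 scale (SE 0.18, adjusted p = 0.0340, limma), 0.93 in the control (adjusted p = 0.288) and 0.99 in FFA (adjusted p = 0.262).

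HMMR encodes a microtubule-binding protein of the spindle poles. It had 24.6 and 17.6 CPM in the mono-culture control and 32.1 and 41.8 in mono-culture FFA. In co-culture it had 77.3 and 62.2 CPM in the control and 67.7 and 45.6 in FFA. The libraries did not overlap, and the ratio of the means, 63.2 ± 13.3 to 29.0 ± 10.4 CPM, was 2.18. The difference was 1.14 (SE 0.23, adjusted p = 0.0463), 1.69 without FFA (adjusted p = 0.0668).

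Both calls were near the threshold and depended on single libraries. Neither gene was called without either library of the co-culture control, replicate 1 of co-culture FFA, replicate 2 of the mono-culture control, or either library of mono-culture FFA, with adjusted p of 0.064 to 0.14 for CENPF and 0.098 to 0.175 for HMMR. Without replicate 1 of the mono-culture control CENPF was called (adjusted p = 0.0342) and HMMR was not (0.0656), and without replicate 2 of co-culture FFA both were called and the count of members rose to 5. In the edgeR quasi-likelihood test on the recovered reads 9 of the 41 members that passed its filter were called (against 8.47% of 4595 genes), 4 higher and 5 lower, with CENPF at an adjusted p of 0.0015 and HMMR at 0.0023.

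Among the members that did not pass, 3 of chromosome structure were higher in every co-culture library than in every mono-culture library. SMC4 had 60.2, 62.3, 66.8 and 49.8 CPM in the 4 mono-culture libraries and 101, 84.8, 104 and 99.8 CPM in the 4 co-culture libraries (0.70, adjusted p = 0.0905). TOP2A had 123, 156, 151 and 153 CPM in mono-culture and 224, 195, 215 and 180 in co-culture (0.48, adjusted p = 0.144). The third was SMC2 (0.74, adjusted p = 0.106). All 6 genes of chromosome structure lay above 0, with a median of 0.44, as did 7 of 8 of the kinetochore, with a median of 0.31.

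Other members lay on the opposite side of 0. CKS2 had 369, 387, 341 and 403 CPM in mono-culture and 285, 305, 215 and 282 in co-culture (-0.47, adjusted p = 0.0960), and the libraries did not overlap. CCNA2 had 24.6, 41.1, 37.1 and 33.7 CPM in mono-culture and 19.8, 19.8, 9.23 and 22.2 in co-culture (-0.95, adjusted p = 0.230), again without overlap. ANLN had 63.0, 64.6, 24.7 and 46.6 CPM in mono-culture and 25.8, 28.3, 4.10 and 18.5 in co-culture, where the groups did overlap (-1.51, adjusted p = 0.0943). Of the checkpoint and anaphase genes 2 of 9 lay above 0, with a median of -0.28.

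**Figure D3:**
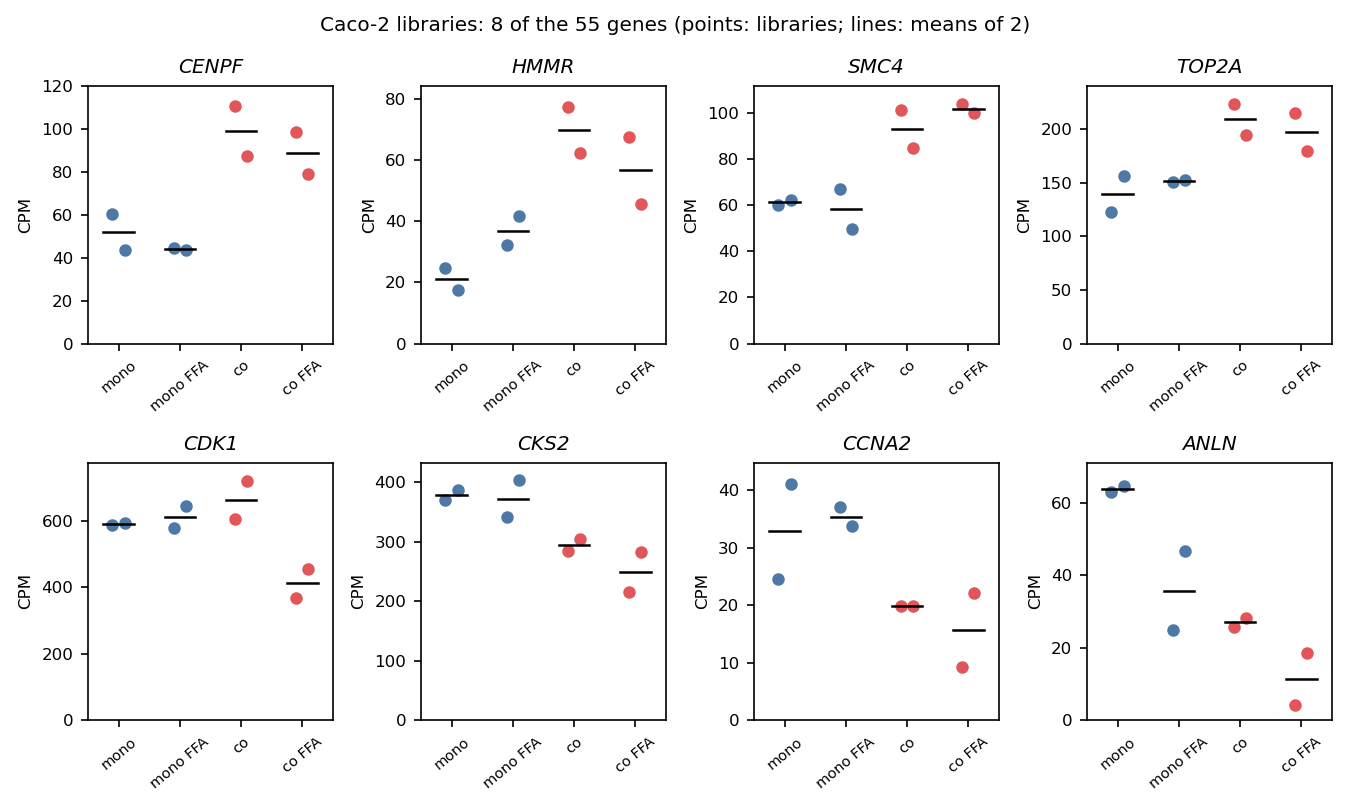
Level (CPM) of 8 genes in the Caco-2 libraries, by group, with a point for each library and a line at the mean of the 2. In CENPF, HMMR, SMC4 and TOP2A all co-culture points lie above all mono-culture points, in CKS2 and CCNA2 all lie below, and in CDK1 the co-culture FFA points (367 and 455 CPM) lie below the rest.

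Over all members the groups did not overlap and were higher in co-culture for 9 (16.4%, against 4.25% of all genes), which were ASPM, AURKA, BUB1, CENPF, HMMR, SMC2, SMC4, TOP2A and TTK. They did not overlap and were lower for 3 (5.45%, against 1.68%), which were BUB3, CCNA2 and CKS2. The median change was 0.00 over the 28 shorter members and 0.28 over the 27 longer ones, against 0.14 and 0.15 over all genes. Liver transcripts also moved with co-culture. The summed level of the liver markers in Caco-2 was 3564 to 4102 CPM in the mono-culture control, 3613 to 3883 in mono-culture FFA, 4707 to 4883 in the co-culture control and 4730 to 4887 in co-culture FFA. Of 14 tested, 13 lay above 0 and 1 was called (TTR, 0.58, adjusted p = 0.0114). TTR and VTN do not mark HepG2 RNA here: their medians were 990 and 1230 CPM over the Caco-2 libraries and 798 and 462 CPM over those of HepG2. In Caco-2 the 12 liver markers that separated the lines summed to 1823 to 2195 CPM in the mono-culture control. They summed to 1766 to 1933 CPM in mono-culture FFA, 2348 to 2363 in the co-culture control and 2004 to 2420 in co-culture FFA. Co-culture thus lay above mono-culture within the control and within FFA. Only co-culture FFA and the mono-culture control overlapped. The part that liver RNA or transcript length had in these results was not tested.

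Split by treatment, co-culture gave no call among the 55 members with limma, without FFA (0.0971% of all genes) or with FFA (0.0971%). At an unadjusted p under 0.05 there were 10 without FFA, of which 8 were higher (against 7.23% of all genes), and 11 with FFA, of which 8 were lower (against 3.03%). edgeR called 1 of 41 (1.48% of all genes) and 5 of 41 (3.85%). Without FFA 40 of 55 members lay above 0 (median 0.19, against 0.10 over all genes), and with FFA 26 of 55 (median -0.13, against 0.08). The comparison without FFA shares its mono-culture control with that of FFA in mono-culture, and its co-culture control with that of FFA in co-culture. The interaction of FFA and culture called no member (0.0% of all genes), 4 had an unadjusted p under 0.05 (7.27%, against 5.02%), and edgeR called none of 41 (0.0435%). The F-test over the 4 Caco-2 groups called none (0.155% of all genes). It left 12 at an unadjusted p under 0.05 (21.8%, against 8.17%), and edgeR called 5 of 41 (5.09% of all genes).

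FFA gave no call in Caco-2 mono-culture with limma (0.00647% of all genes) or with edgeR (0.152%). Of the members 35 of 55 (63.6%) lay above 0, against 51.2% of all genes, and 6 (10.9%, against 3.73%) had an unadjusted p under 0.05, all higher: CKAP2, HMMR, PLK1, NUSAP1, CENPE and BIRC5. The lowest was CKAP2, which had 30.1 and 45.8 CPM in the control and 64.3 in both FFA libraries (0.77, adjusted p = 0.837).

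In Caco-2 co-culture FFA gave no call either, with limma (0.0% of all genes) or edgeR (0.109%). Here 12 of 55 members (21.8%) lay above 0, against 48.9% of all genes, and the median was -0.19 against 0.00. All 10 genes of mitotic entry lay below 0. CDK1, at 606 and 721 CPM in the co-culture control and 367 and 455 in co-culture FFA, had the lowest unadjusted p, and its groups did not overlap (-0.69, SE 0.14, unadjusted p = 2.30e-04, adjusted p = 0.592). In mono-culture the same gene had 586 and 593 CPM in the control and 579 and 643 in FFA, where the groups overlapped, and the interaction was -0.74 (adjusted p = 0.820). ANLN (-1.49), CDCA3 (-0.56) and KIF2C (-1.31) were the other 3 with an unadjusted p under 0.05, and all 4 were lower (7.27%, against 2.42% of all genes). Averaged over culture, FFA called none (0.0% of all genes), with 4 at an unadjusted p under 0.05 (7.27%, against 4.85%) and none called by edgeR (0.196%).

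In HepG2, 53 of the 55 genes passed the filter of a mean of 1 CPM in at least 1 group, ASPM and KIF14 being the others. No comparison within HepG2 called a member with limma, and edgeR called none of the 20 among the 4030 genes that passed its own filter. The share of all genes called was 0.0% for FFA in mono-culture, FFA in co-culture, co-culture with FFA, co-culture without FFA, co-culture averaged over treatment, the interaction and the F-test, and 0.0762% for FFA averaged over culture. With edgeR it was 0.744, 7.99, 0.422, 0.347, 1.17, 0.0 and 8.76% in the same order, and 13.3% for FFA averaged over culture. At an unadjusted p under 0.05, FFA gave 3 members in mono-culture (5.66%, against 6.26% of all genes), 7 in co-culture (13.2%, against 15.9%) and 2 averaged over culture (3.77%, against 13.8%). Co-culture gave 13 with FFA (24.5%, against 14.7%), of which 7 were higher and 6 lower, 1 without FFA (1.89%, against 2.61%) and 7 averaged over treatment (13.2%, against 7.72%). The interaction gave 4 (7.55%, against 6.94%) and the F-test 7 (13.2%, against 12.2%). All but those of co-culture with FFA and averaged over treatment were near or under the share of all genes.

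Of these members 45 of 53 (84.9%) lay above 0 for co-culture without FFA, against 53.5% of all genes, with a median of 0.38 against 0.05. The summed level did not overlap there, at 866 and 906 CPM in the mono-culture control and 1142 and 1166 in the co-culture control. BIRC5, at 6.97 and 27.4 CPM in mono-culture and 49.5 and 42.3 in co-culture, was the only member with an unadjusted p under 0.05 (1.64, adjusted p = 1). Over both treatments every co-culture library lay above every mono-culture library for CDC20 and CDCA3, which is 2 of 53 (3.77%) against 1.12% of all genes. CDC20 had 6.97, 7.82, 7.06 and 10.9 CPM in mono-culture and 18.1, 11.6, 47.6 and 20.2 in co-culture (1.30, adjusted p = 0.628). In the library at 20.2 CPM this was 1 read.

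FFA in HepG2 mono-culture gave CENPF the lowest unadjusted p. It had 13.9 and 12.7 CPM in the control and 30.6 and 32.7 in FFA (1.19, adjusted p = 0.727). CDK1 was higher in all 4 FFA libraries (25.9, 29.1, 27.2 and 60.4 CPM) than in all 4 controls (13.9, 8.80, 23.5 and 25.4 CPM). It was the only member of 53 without overlap (1.89%, against 4.16% of all genes), at a difference of 0.97 (adjusted p = 0.297). AURKA had 27.1 and 26.4 CPM in the co-culture control and 6.80 and 0 in co-culture FFA (-3.31, adjusted p = 0.194). Gut markers summed to 68.0 and 121 CPM in the HepG2 co-culture FFA libraries and to 28.3 to 39.2 CPM in the other 6. The sums of 68.0 and 121 CPM rest on 10 and 6 reads of 2 genes. CDH17 and MUC13, gut markers with reads in all 8 Caco-2 libraries, had none in any HepG2 library. Their Caco-2 medians were 37.6 and 9.05 CPM, and 1 read was worth 6.80 and 20.1 CPM in the HepG2 co-culture FFA libraries. Other gut markers did have reads in HepG2, among them VIL1 (117), FABP2 (41) and TSPAN8 (21). FABP2 had 1 read in Caco-2 and was higher in HepG2. Whether these libraries held gut RNA was not tested. In these 2 co-culture FFA libraries the AURKA values rest on 1 read and 0 reads, and the 3-read floor of the shallower, 60.4 CPM, lies above the level in the control.

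The difference between the lines in these effects was tested as well. For co-culture no member was called (0.0969% of all genes), 12 had an unadjusted p under 0.05 (21.8%, against 9.72%) and edgeR called 1 of 39 (CDC20, against 2.0% of all genes). The lowest adjusted p was that of CDC20, whose change with co-culture was higher in HepG2 by 1.62 (adjusted p = 0.214). For FFA no member was called (0.0912% of all genes), 4 had an unadjusted p under 0.05 (7.27%, against 11.4%), edgeR called none of 39 (7.92% of all genes), and the lowest was CDK1, whose change was higher in HepG2 by 1.29 (adjusted p = 0.120). HMMR changed with co-culture by 1.14 in Caco-2, and its line difference of -1.87 did not pass (adjusted p = 0.388).

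The rest of the mitotic machinery and the rest of the cycle were read from separate lists. Of all genes tested, 17.9% were called lower and 12.5% higher in HepG2 than in Caco-2. Of 99 other mitosis genes tested, 59 were called lower and 3 higher (median -1.41). They included CEP55, which recruits the abscission machinery (-3.81), SGO2, which protects centromeric cohesin (-3.60), and the chromatin protein HMGB2 (-1.44). Of 41 genes of DNA replication 21 were lower and none higher (median -1.15), among them thymidine kinase TK1 (-3.15), the ribonucleotide reductase subunit RRM2 (-1.47) and the clamp loader subunits RFC3 (-2.25) and RFC4 (-1.70). Of 24 inhibitors of the cycle 8 were lower and 2 higher (median -0.45). CDKN1B, which encodes the CDK inhibitor p27, differed by -2.63, and the stress genes GADD45B and GADD45A by -3.53 and -1.16. In Caco-2 co-culture 36 of the 41 replication genes lay above 0 (median 0.48), against 59.6% of all genes. None was called by limma, against 0.453% of all genes.

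Some members share reads with other features. Copies of UBE2S (UBE2SP1 and UBE2SP2) had 8 and 15 reads beside 147 of UBE2S, and CKS1BP3 had 3 beside 3292 of CKS1B. HMMR, PRC1 and CENPF overlap a gene on the opposite strand, NUSAP1, BUB1B and CENPA a gene on the same strand. Whether counting used strand is not given in the sources used here, so reads of the overlapping genes cannot be told apart.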

How the data were processed

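RNA of Caco-2 and HepG2 cells was read as Nanopore PCR-cDNA in 16 libraries. Per the submitters' processing notes, reads were mapped with minimap2 2.22 to GRCh38. The study's methods name RSEM for expression values of mRNA-seq, beside short-read mapping, and do not say whether it was used for the Nanopore libraries. Whether counting was by strand is not given in the sources used here. The deposited columns are named TPM, but the authors' values were whole multiples of 1 step per library and were treated as CPM (97.9 to 99.98% whole within 0.02 read as written, and 100% once rounding of the file was allowed for). Reads were recovered from the steps. The fit planned for the named unit was applied to these CPM values, which carry no length scaling.

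A gene was tested where the mean of any group reached 1 CPM, which left 15454 genes in Caco-2, 14430 in HepG2 and 17544 over both lines. Values of log2(CPM + 1) were fitted to group means in limma (version 3.58.1, R 4.3.3). The prior variance followed the mean level, and p-values were adjusted by Benjamini-Hochberg over all genes tested. Within a line the fit held its 8 libraries, and for line differences all 16. edgeR 4.0.16 (quasi-likelihood, on recovered reads), other pseudocounts, filters, scalings and priors, thinning to 49634 reads, the replicate number as a block, and leaving out each library were the alternatives. The scripts were tested on simulated data with planted changes. A minimum recovery was required of the Caco-2 fit and of the fit over both lines, and not of the HepG2 fit.

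All 55 genes may be named. Fuller values were planned for at most 10 genes past the threshold per comparison, by smallest p, for the 2 with the most reads in each role, and for MKI67, TOP2A, CDK1, CCNB1 and PLK1. From other lists at most 5 called genes were named. The genes and lists were chosen with earlier results of these data known. Positions are from GENCODE 44.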

Additional observations from a re-analysis of the deposited data

How the results depend on the processing

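The members' median difference between the lines stayed below 0 under every alternative run. Single genes were followed for at most 10 members per comparison, which gave 37 values, and none of these changed sign. The count of 49 fell to 21 of 54 when every library was thinned to 49634 reads, and the count of 24 in mono-culture controls to 4 of 54. The cause of this fall was not tested, and the share of all genes called after thinning is not given here. By the study's thresholds (unadjusted p under 0.05, 1.2-fold), 40 were lower in mono-culture controls. Leaving out 1 library gave 44 to 51 and 16 to 36 calls.

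For Caco-2 co-culture averaged over treatment, 2 calls became 0 with a pseudocount of 0.1, a constant prior or thinning, 5 at an adjusted p under 0.1, 5 with the replicate block, 7 with a mean of at least 10 CPM, 9 with edgeR and 15 by the study's thresholds. Leaving out 1 library gave 0 to 5, as described above. Co-culture without FFA went from 0 to 1 at an adjusted p under 0.1, with edgeR, at 10 CPM, without a filter, with a pseudocount of 5 and with the block, and to 10 by the study's thresholds. With FFA it went to 5 with edgeR, 2 at 10 CPM, 1 with the block, 11 by the study's thresholds and 0 to 3 without 1 library (3 without co-culture FFA replicate 2, 1 without replicate 1). FFA in co-culture went to 1 at 10 CPM and with the block, 4 by the study's thresholds and 0 to 1 without 1 library. The F-test went to 5 with edgeR, 4 at 10 CPM, 2 without a filter, 4 with the block, 12 by the study's thresholds and 0 to 1 without 1 library. The study's thresholds gave 6 for FFA in mono-culture, 4 averaged (0 to 1 without 1 library) and 4 for the interaction. For FFA in co-culture, FFA averaged and the F-test, the 1 call appeared without Caco-2 co-culture FFA replicate 2. The cause of these changes was not tested. Where no share of all genes called is given for a setting, the count does not set the members apart from other genes.

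In HepG2 quantile scaling gave 1 call for FFA in co-culture, co-culture with FFA and the F-test. The study's thresholds gave 3 for FFA in mono-culture, 7 in co-culture, 2 averaged, 1 for co-culture without FFA, 13 with FFA, 7 averaged, 4 for the interaction and 7 for the F-test. Shares of all genes called are not given for fits without 1 library, so those counts do not set the members apart. Leaving out co-culture FFA replicate 1 leaves that group with the library of 49634 reads, assumed to vary like the others. It gave 10, 6, 16, 9, 5 and 7 calls (0 to 10, 0 to 6, 0 to 16, 0 to 9, 0 to 5 and 0 to 7 over all libraries) for FFA in co-culture, FFA averaged, co-culture with FFA, co-culture averaged, the interaction and the F-test. The line difference in the co-culture effect had 1 call with edgeR and with thinning, 12 by the study's thresholds and 0 to 12 without 1 library (12 without HepG2 co-culture FFA replicate 1, 2 without replicate 2). That in the FFA effect had 4 and 0 to 8 (8 without replicate 1). The replicate block moved no other count by over 1.5 times. The deviations of same-numbered libraries correlated at -0.0169 to 0.0318 over all genes (none of 6 pairs per line over 0.1), and over genes of at least 100 CPM at -0.0172 to 0.291 in Caco-2 (4 of 6 over 0.1) and -0.103 to 0.121 in HepG2 (3 of 6). Not every pair passed 0.1, and the main fit used no block. Over the Caco-2 genes of at least 100 CPM the mean correlation was 0.151. Whether same-numbered libraries shared a run or batch was not tested. Median-ratio scaling moved the median of all genes for FFA in HepG2 co-culture from -0.26 to -0.45, and quantile scaling moved it for Caco-2 co-culture from 0.14 to 0.01.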
